A study of Mus musculus with 6 samples.

Results

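Chemokine transcripts were followed in sorted hair follicle cells from newborn mouse back skin, in 3 libraries from control animals and 3 from animals with the alleles Ring1a-/- Ring1b-/I53A. The set holds 10 chemokine genes of keratinocytes and skin, found by symbol among the 24453 symbols of the count files: Cxcl14, Cxcl12, Cxcl1, Cxcl2, Cxcl9, Cxcl10, Cxcl16, Cx3cl1, Ccl2 and Ccl20. All 10 symbols were present, and 9 passed the filter on low counts that left 14345 genes for testing. Ccl20 did not pass it. The set was selected on the contrast of control and mutant libraries, in that the higher Cxcl14 counts of the mutants were known and the other skin chemokines were placed beside it. Values of these 10 genes in the 2 groups are therefore given as a description, without p-values. Whether a member passed the threshold is stated as part of that description, and nothing is read from it. Genes outside the set were tested.

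All libraries came from postnatal day 0. The comparison genotype is called just control by the labels, which leave its alleles unstated. By label the mutants lack Ring1a (gene Ring1) and carry a null and an I53A allele of Ring1b (gene Rnf2), so that no group separates these alleles. The labels state neither what drives the deletion nor whether animals were pooled or the 3 libraries of a group came from separate animals. The p-values then measure only the spread between these libraries, which may be technical. Ring1a and Ring1b are the catalytic subunits of Polycomb repressive complex 1, which ubiquitylates histone H2A and keeps developmental genes silent, and the I53A substitution is known to impair this ligase activity.

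Chemokines are small secreted or membrane-anchored proteins that guide cells along gradients through G protein-coupled receptors. Keratinocytes make some of them constitutively, of which Cxcl14 is the best known in skin, and others after injury or cytokine exposure through NF-kB and interferon-regulated transcription. They place Langerhans cells, T cells and neutrophils in the epidermis and around the follicle. In these bulk RNA data a lower level in a library may mean fewer cells of a type or less RNA per cell, which cannot be told apart.

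Library totals were 14335156 to 18811587 counts. Levels are in CPM, the count scaled to a common library size with TMM factors, and a level of 1 CPM was 14.7 to 18.2 reads, and 0 reads allow up to 3 counts, or 0.164 to 0.204 CPM, for counting error only. Ring1, absent by label from the mutants, was at 16.8, 22.1 and 21.1 CPM in controls and 3.23, 7.10 and 4.88 CPM in mutants (log2 fold change -1.98, SE 0.33, edgeR adjusted p = 0.0113), so that 59, 119 and 73 reads of it remained in mutants 1, 2 and 3. Rnf2, whose counts do not separate its alleles, was at 55.9, 55.7 and 67.8 CPM in controls and 64.6, 65.4 and 71.3 CPM in mutants, with overlapping groups (adjusted p = 0.736). The protocol text describes a Sca1-positive interfollicular gate while the labels say hair follicle. Ly6a, the gene of Sca1, lay between 0.502 and 1.49 CPM in all 6 libraries, Epcam between 131 and 272 CPM and Itga6 between 560 and 1019 CPM. Follicle markers summed to 3897 to 4342 CPM in controls and 3365 to 3939 CPM in mutants, and interfollicular and suprabasal markers to 4016 to 5500 and 2579 to 4233 CPM. Krt1 and Krt10, keratins of suprabasal epidermis, were thus well represented next to the follicle genes (Krt1 at 3358 ± 764 and 2126 ± 510 CPM, SD, n = 3 each). Krt1 did not pass the test (adjusted p = 0.195) and fell with the replicate block (-0.66, adjusted p = 0.00154). Of the 7 tested interfollicular and suprabasal genes 5 had a positive log2 fold change (median 0.53). None of them was called, and 1 rose and 1 fell with the block. Of the 12 follicle genes 3 had a positive log2 fold change (median -0.25). The 1 called was Lgr5, lower in mutants (178 and 83.7 CPM, edgeR adjusted p = 0.0125), and with the block 1 rose and 4 fell. Over all genes 2.59% rose and 0.404% fell, and 6.09% and 3.29% with the block.

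The start regions of 4 genes are shown because these genes carry the patterns described here. Each line is the 250 bases before the RefSeq start on GRCm38.p6, 5′ to 3′ on the gene's strand. For Cxcl14 (chr13:56296552-56296801, minus strand), the gene that was higher in mutants, and Cxcl12 (chr6:117168285-117168534, plus strand), capitals mark CpG dinucleotides, the feature of promoters that Polycomb complexes are known to occupy. For the neutrophil chemokines Cxcl1 (chr5:90890995-90891244, plus strand) and Cxcl2 (chr5:90903649-90903898, plus strand), capitals mark matches on either strand to GGGNNTTTC, letters of an NF-kB site.
Cxcl14: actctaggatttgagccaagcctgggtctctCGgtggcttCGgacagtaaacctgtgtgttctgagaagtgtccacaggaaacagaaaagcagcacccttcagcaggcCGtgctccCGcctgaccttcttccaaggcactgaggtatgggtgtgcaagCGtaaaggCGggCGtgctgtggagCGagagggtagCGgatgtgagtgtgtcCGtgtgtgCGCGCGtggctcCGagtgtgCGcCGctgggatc
Cxcl12: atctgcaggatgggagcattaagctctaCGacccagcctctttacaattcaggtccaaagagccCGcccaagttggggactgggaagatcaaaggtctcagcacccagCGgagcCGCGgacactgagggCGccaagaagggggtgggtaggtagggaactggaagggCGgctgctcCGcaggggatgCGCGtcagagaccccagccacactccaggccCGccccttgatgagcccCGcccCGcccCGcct
Cxcl1: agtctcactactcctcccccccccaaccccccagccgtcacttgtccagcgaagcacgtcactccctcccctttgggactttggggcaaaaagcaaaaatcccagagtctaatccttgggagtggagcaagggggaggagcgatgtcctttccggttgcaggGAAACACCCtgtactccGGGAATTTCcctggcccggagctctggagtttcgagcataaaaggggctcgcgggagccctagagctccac
Cxcl2: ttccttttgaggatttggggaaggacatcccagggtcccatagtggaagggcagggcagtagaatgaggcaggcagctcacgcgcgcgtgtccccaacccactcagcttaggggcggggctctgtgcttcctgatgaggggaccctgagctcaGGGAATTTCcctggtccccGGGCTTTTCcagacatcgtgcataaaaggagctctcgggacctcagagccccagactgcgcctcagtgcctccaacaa

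The Cxcl14 window held 16 CpG and the Cxcl12 window 14, against a median of 6 over 32851 RefSeq windows of the same length. Fewer CpG than in Cxcl14 were found in 74.6% of those windows. The windows of Cxcl10 and Cxcl9 held 5 and 3, those of Cxcl1, Cxcl2, Cx3cl1 and Ccl20 held 10, 9, 14 and 2, and Cxcl16 and Ccl2 were not matched. The NF-kB letters occurred 2 times each in Cxcl1 and Cxcl2 and 1 time each in Ccl20 and Cxcl9, and in 3.72% of all windows. The interferon factor letters TTTCNNTTT, on either strand, occurred in Cxcl10 and Cxcl14 and in 9.37% of all windows. Both motifs are shortened forms that were adopted after longer ones had been searched, and they match more windows than those did. The Cxcl9 match is found with the shortened NF-kB letters alone. These are matches of letters and not measured binding.

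Cxcl14 had the highest mean level of the members in both groups, although Cxcl10 was above it in control 1, and it stood higher in every mutant library than in every control. Cxcl14 (ENSMUSG00000021508.11, chromosome 13, 56288643 to 56296551, minus strand, GENCODE M21 on GRCm38) encodes a chemokine of resting epithelia that attracts myeloid cells. Its level was 58.7, 116 and 126 CPM in controls 1, 2 and 3, from 861, 1842 and 2226 reads. In mutants 1, 2 and 3 it was 322, 178 and 261 CPM, from 5878, 2985 and 3907 reads. The lowest mutant library was above the highest control, and control 1 was the low library of its group. Group means were 100.2 ± 36.4 and 254 ± 72.4 CPM (SD, n = 3 each), a ratio of 2.53 and a log2 fold change of 1.34 (SE 0.30). Leaving out any library kept the log2 fold change between 1.07 and 1.55.

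Cxcl14 was the 1 member of the 9 tested that passed the threshold of an adjusted p under 0.05. Over all 14345 genes 3.0% passed it (2.59% upward and 0.404% downward). It passed in 1 of the 6 fits that left out a library, the fit without control 3, and not with DESeq2-type size factors. With the replicate number as a block Cxcl14 and Cxcl12 passed upward, where 9.38% of all genes passed (6.09% upward and 3.29% downward). The groups did not overlap for Cxcl14 and Cxcl16, both higher in mutants, and for 21.2% of all genes (12.1% higher and 9.15% lower in mutants). Nothing is read from these shares, since the same contrast chose the set.

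**Figure D1:**
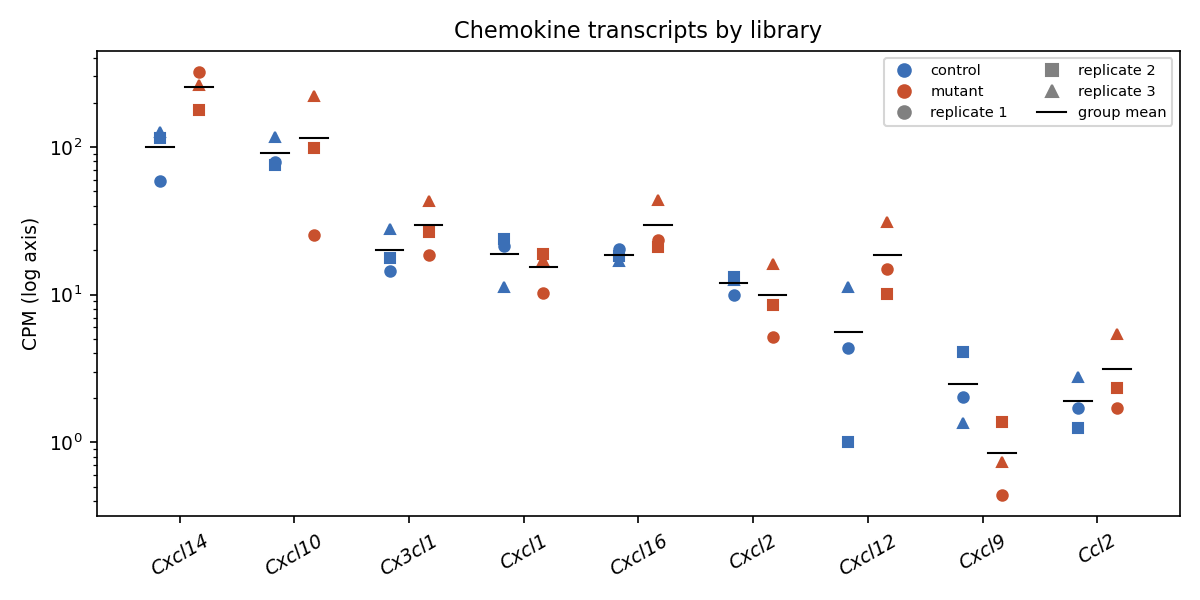
CPM of 9 chemokine genes on a log axis, 3 control libraries in blue and 3 mutant libraries in orange, with symbols for the replicate number and a line at each group mean. The Cxcl14 points of the mutants lie between 178 and 322 CPM, above all controls, while the mutant points of Cxcl10 spread from 25.3 to 222 CPM. Ccl20 is left out because some of its libraries had no reads.

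Cxcl12 was low in controls and differed widely between libraries of a group. It encodes the stromal ligand of Cxcr4 and Ackr3 and is made by dermal fibroblasts and the dermal papilla (chromosome 6, 117168535 to 117181367). Controls 1, 2 and 3 were at 4.36, 1.00 and 11.3 CPM, from 64, 16 and 199 reads, and mutants 1, 2 and 3 at 14.9, 10.1 and 31.0 CPM, from 271, 170 and 464 reads. Mutant 2 lay below control 3, so the groups overlapped, although each mutant library was above the control of its own number. Means were 5.55 ± 5.25 and 18.7 ± 10.95 CPM (SD, n = 3 each), a ratio of 3.36. The log2 fold change was 1.74 (SE 0.70), and 2.06 (SE 0.35) with the replicate block. It was 1.16 without mutant 3 and 2.82 without control 3.

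The fibroblast and dermal papilla markers are given beside Cxcl12, which such cells express. Of 10 tested (12 listed), 2 rose and none fell, with a median log2 fold change of 0.12. Of all tested genes 2.59% rose and 0.404% fell. Thy1, a surface glycoprotein of fibroblasts and other cells, went up from 9.61 ± 0.572 to 39.5 ± 15.2 CPM, a log2 fold change of 2.04 (SE 0.31, edgeR adjusted p = 0.00761). Fbn1, a microfibril protein, rose from 24.1 ± 11.6 to 87.1 ± 10.4 CPM (1.85, SE 0.32, edgeR adjusted p = 0.0137), a call lost without control 1 (0.0756), mutant 1 (0.0515) or mutant 2 (0.0633). Crabp1, which was not called, was at 0.749 and 2.62 CPM without overlap (1.80, SE 0.68, edgeR adjusted p = 0.243). The defining collagens did not pass: Col1a1 was at 132 and 102 CPM and Col3a1 at 91.7 and 77.2 CPM. Dcn, a fibroblast proteoglycan, was at 410 and 454 CPM. The summed level of the list was 623 to 1077 CPM in controls and 782 to 1070 CPM in mutants. Endothelial markers are given beside Cxcl12 too. Of 4 tested (8 listed) none was called, and all 4 had a positive log2 fold change, with a median of 0.43. Cdh5 was at 4.50 and 7.50 CPM (edgeR adjusted p = 0.441), Tek at 1.70 and 1.85 CPM (0.952) and Pecam1 at 5.74 and 5.86 CPM (0.987). Vwf, the clotting factor carrier of endothelium, was at 0.477, 0 and 3.58 CPM in controls and 1.59, 0.835 and 8.09 CPM in mutants (1.35, SE 1.25, edgeR adjusted p = 0.704). The libraries of Vwf stood in the order of Cxcl12 within each group. The basal keratinocyte genes Itga6, Itgb4 and Col17a1, picked after their values were seen, stood in that order too. Kdr, a receptor for vascular growth factor that was too low to be tested and is named here after its values were seen, had 8, 2 and 9 reads in controls and 26, 10 and 59 in mutants. The list summed to 11.7 to 19.4 CPM in controls and 15.0 to 36.7 CPM in mutants. The part of fibroblast or endothelial RNA in the Cxcl12 values was not tested.

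The neutrophil chemokines Cxcl1 and Cxcl2, ligands of Cxcr2 that are induced quickly by NF-kB, differed by less than the spread between libraries. Cxcl1 (chromosome 5, 90891241 to 90893115) was at 21.4, 23.7 and 11.2 CPM in controls and 10.2, 18.8 and 17.2 CPM in mutants. The ranges of the groups overlapped, with a log2 fold change of -0.28 (SE 0.34). Its neighbour Cxcl2 (90903871 to 90905938) was at 10.0, 13.2 and 12.7 CPM in controls and 5.21, 8.47 and 16.2 CPM in mutants, with a log2 fold change of -0.27 (SE 0.39). The controls of Cxcl2 lay close together with a coefficient of variation of 14.4%, while the mutants reached 56.6%, mutant 1 lowest and mutant 3 highest. The proteins of this pair are near relatives, and reads may be shared between their transcripts.

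For Cxcl9 and Cxcl10, interferon-inducible ligands of Cxcr3, the groups overlapped. Cxcl10 (chromosome 5, 92346638 to 92348889, minus strand) was the next most abundant member after Cxcl14, at 78.8, 75.9 and 117 CPM in controls. In mutants 1, 2 and 3 it was at 25.3, 98.4 and 222 CPM, so that the mutant group held both the lowest and the highest library. Its log2 fold change of 0.35 (SE 0.57) became -0.56 without mutant 3 and 0.82 without mutant 1, and -0.06 with the replicate block. Cxcl10 lies within Art3 of the opposite strand, whose reads cannot be told apart without a stated strand setting. Cxcl9 (92321347 to 92328079, minus strand), which is mostly made by leukocytes under interferon gamma, was rare, with 30, 65 and 24 reads in controls and 8, 23 and 11 in mutants. These were 2.04, 4.08 and 1.36 CPM against 0.439, 1.37 and 0.735 CPM, and the highest mutant library just overlapped the lowest control. The log2 fold change of Cxcl9 was -1.55 (SE 0.70).

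Leukocyte markers were read beside Cxcl9. Of 8 tested (19 listed, 18 in the files), 1 rose and none fell, with a median log2 fold change of -0.88. Of all tested genes 2.59% rose and 0.404% fell. H2-Ab1, an MHC class II chain, rose from 4.95 ± 2.93 to 20.4 ± 4.39 CPM (2.04, SE 0.46, edgeR adjusted p = 0.0476), with a call lost in 4 of 6 fits without 1 library (adjusted p 0.0920 to 0.174) and with DESeq2-type size factors (0.0514). Cd68, a lysosomal protein of macrophages, was at 37.2, 44.2 and 28.7 CPM in controls and 22.4, 25.6 and 16.8 CPM in mutants, without overlap (-0.76, SE 0.24, adjusted p = 0.145), and it fell with the replicate block (-0.76, adjusted p = 0.0190) and with DESeq2 (-0.78, adjusted p = 0.0493). H2-Ab1 was the 1 gene of the 8 with a positive log2 fold change. Ptprc, the pan-leukocyte gene CD45, was at 1.23, 0.753 and 3.18 CPM in controls and 0.767, 0.537 and 0.602 CPM in mutants (adjusted p = 0.422). Cd3g had no read in any library, Cd3e had 1 read in all and Cd207, the Langerhans cell lectin, had 6 reads in controls and 0 in mutants. Summed levels were 77.4 to 208 CPM in controls and 64.9 to 96.9 CPM in mutants. The part of leukocyte RNA in the Cxcl9 values was not tested.

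Both membrane-anchored chemokines were higher on average in mutants. Cxcl16, the ligand of Cxcr6 on T cells (chromosome 11, 70453983 to 70459984, minus strand), was at 20.2, 18.3 and 16.8 CPM in controls and 23.4, 21.05 and 44.0 CPM in mutants. The groups did not overlap, but mutants 1 and 2 lay close above the controls and mutant 3 stood apart. Its log2 fold change of 0.67 (SE 0.29) was 0.27 without mutant 3. Cxcl16 overlaps Zmynd15 on the opposite strand. Cx3cl1, the fractalkine ligand of Cx3cr1 (chromosome 8, 94772009 to 94782427), was at 14.5, 17.8 and 28.0 CPM in controls and 18.4, 26.5 and 43.4 CPM in mutants. Replicate 3 was the highest in both groups, the groups overlapped, and the log2 fold change was 0.55 (SE 0.35).

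The CC chemokines were at the low end. Ccl2, which draws monocytes through Ccr2 (chromosome 11, 82035571 to 82037453), had 25, 20 and 49 reads in controls and 31, 39 and 81 in mutants. These were 1.70, 1.26 and 2.78 CPM against 1.70, 2.33 and 5.41 CPM, with overlapping groups and a log2 fold change of 0.71 (SE 0.61), or 0.06 without mutant 3. Ccl2 overlaps the gene model Gm17268 on the opposite strand. Ccl20, the ligand of Ccr6, had 2 reads in each control and 0, 0 and 3 reads in the mutants, at or under the floor in every library, so that no fold is given.

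Levels of different genes were compared after division by exon length (CPM per kilobase of merged GENCODE exons). In controls the order was Cxcl14 (54.8 ± 19.9), Cxcl10 (40.2 ± 10.1), Cxcl1 (10.0 ± 3.53), Cxcl16 (6.11 ± 0.570), Cxcl2 (5.79 ± 0.831), Cx3cl1 (5.12 ± 1.79), Ccl2 (1.68 ± 0.689), Cxcl9 (0.827 ± 0.469), Cxcl12 (0.679 ± 0.642) and Ccl20 (0.0880 ± 0.00801), SD over n = 3. Libraries of neighbours in this order overlapped except at 3 steps: from Cxcl10 to Cxcl1, from Cx3cl1 to Ccl2 and from Cxcl12 to Ccl20. In mutants Cxcl14 reached 139 ± 39.6 and Cxcl10 51.1 ± 44.0 CPM per kilobase, with overlapping libraries, and Cxcl12 had passed above Cxcl9, at 2.28 ± 1.34 and 0.281 ± 0.158, without overlap between the 2 genes. Cxcl14 made up 33.3%, 48.9% and 46.1% of the members' summed level per kilobase in controls 1, 2 and 3 and 83.4%, 56.4% and 48.8% in mutants 1, 2 and 3. Its share in mutant 3 was no higher than in control 2 because Cxcl10 was also high there.

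Among the receptors, the scavenging receptor of Cxcl12 was higher in mutants and the signalling one had lower values. Of 23 receptor genes 9 passed the filter, 1 of which rose and none fell, against 2.59% and 0.404% of all genes. The median log2 fold change was -0.20 against 0.00 over all genes. Ackr3, the atypical receptor that binds and removes Cxcl12, was at 42.4, 41.9 and 59.9 CPM in controls and 88.9, 97.8 and 78.7 CPM in mutants. Its mean rose from 48.1 ± 10.2 to 88.4 ± 9.56 CPM, a log2 fold change of 0.88 (SE 0.20, edgeR adjusted p = 0.0445), with no overlap between groups. The call was lost in 5 of 6 fits without 1 library (adjusted p 0.0564 to 0.194, all but the fit without control 3) and with DESeq2-type size factors (0.0515).

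Cxcr4, the signalling receptor of Cxcl12, was at 19.6, 16.6 and 10.8 CPM in controls and 7.02, 8.59 and 4.35 CPM in mutants. Every mutant library was below every control, yet the gene missed the threshold (log2 fold change -1.23, SE 0.34, edgeR adjusted p = 0.1003). It fell with the replicate block (-1.25, adjusted p = 0.0161), with DESeq2 (-1.25, adjusted p = 0.0136) and without control 3 (-1.44, adjusted p = 0.0398). Cxcl12 and Ackr3 were thus higher, and Cxcr4 lower, in the mutant library of all 3 same-numbered pairs. For Ackr3 and Cxcr4 any pairing would give this, because their groups did not overlap. How many of all genes show the same was not counted, so nothing is read from it.

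**Figure D2:**
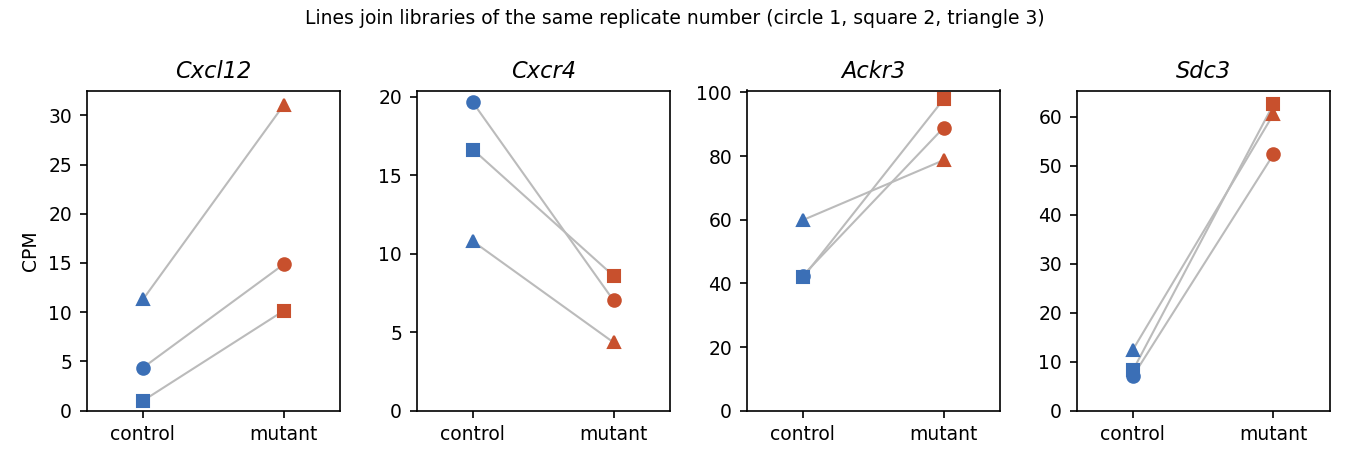
CPM of Cxcl12, its receptors Cxcr4 and Ackr3 and the heparan sulfate proteoglycan gene Sdc3, controls in blue and mutants in orange, with grey lines joining libraries of the same replicate number. Cxcl12, Ackr3 and Sdc3 are higher and Cxcr4 lower in the mutant library of each pair, and only Cxcl12 has overlapping groups.

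The signalling receptors of the remaining members were at low levels, and Ackr4 was not. Ackr4, the scavenger of CC chemokines, was at 43.8 ± 17.7 and 28.9 ± 4.22 CPM (log2 fold change -0.60, SE 0.28, edgeR adjusted p = 0.359), and Ccr4 at 3.52 and 2.74 CPM (adjusted p = 0.835). Cxcr6, the receptor of Cxcl16, was at 1.97 ± 0.546 and 1.92 ± 0.680 CPM. Cxcr3 and Ccr6, the receptors of Cxcl9 and Cxcl10 and of Ccl20, had no read in any library, Cxcr2 had 1 read in controls and 12 in mutants, and Cx3cr1 had 21 and 24. Ccr7, a receptor of migrating dendritic cells, had 28 reads in control 3 and none elsewhere, and Ccr8 had 20 reads in control 3 and 1 in mutant 3. Control 3 was also the library with the most Ptprc and Cd74 (51.1 CPM).

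**Figure D3:**
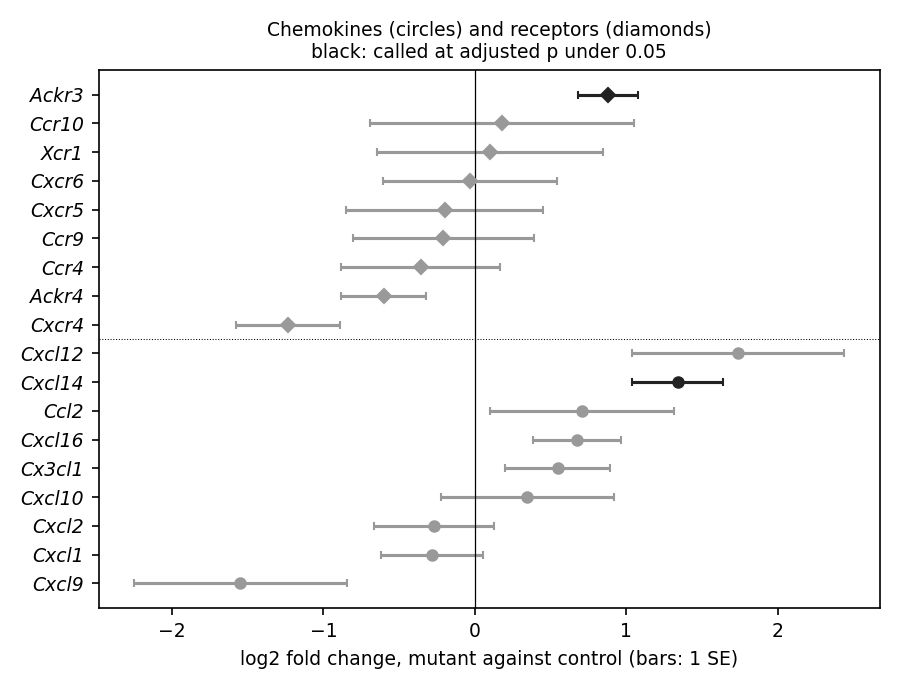
Log2 fold changes of mutant against control with bars of 1 SE, for 9 chemokines (circles, lower part) and 9 receptors (diamonds, upper part), with called genes in black. Cxcl14 at 1.34 and Ackr3 at 0.88 are the called genes, and the bars of Cxcl12 and Cxcl9 are wide.

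Among genes that shed chemokines from membranes, trim them or hold them on heparan sulfate, a syndecan rose. Of 18 genes, all tested, 1 rose and none fell (median log2 fold change 0.09), and with the replicate block 2 rose. Of all tested genes 2.59% rose and 0.404% fell, and 6.09% rose with the block. Sdc3, a heparan sulfate proteoglycan of neural and muscle tissue, was at 7.02, 8.22 and 12.4 CPM in controls and 52.3, 62.5 and 60.5 CPM in mutants. It rose from 9.22 ± 2.84 to 58.4 ± 5.43 CPM (2.66, SE 0.25, edgeR adjusted p = 0.000651) and was called in all 6 fits without 1 library. Ext2, a heparan sulfate polymerase, was at 124 ± 10.5 and 204 ± 35.1 CPM without overlap (0.71, SE 0.17, adjusted p = 0.0554), and rose with the block (adjusted p = 0.00986). Sdc2 (26.5 and 39.1 CPM, adjusted p = 0.201) and Ext1 (256 and 328 CPM, adjusted p = 0.296) did not pass. Of the sheddases of Cxcl16 and Cx3cl1, Adam10 was at 118 ± 11.8 and 105 ± 7.15 CPM and Adam17 at 60.4 ± 5.66 and 62.5 ± 5.54 CPM. Dpp4, a peptidase that trims Cxcl12 and Cxcl10, was at 48.6 ± 8.05 and 47.3 ± 2.41 CPM.

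No gene of the upstream lists passed the test of mutant against control, which 3.0% of all tested genes passed. With lists this short nothing is read from the absence of calls. Of 22 tested epidermal cytokine and receptor genes (28 listed) none was called by edgeR, with a median log2 fold change of -0.07 and 3 genes at an unadjusted p under 0.05, and DESeq2 called none either. Over all tested genes 14.9% had an unadjusted p under 0.05. The lowest p was that of Tlr3, a sensor of double-stranded RNA, at 9.12 ± 2.54 and 4.41 ± 0.817 CPM (-1.05, SE 0.35, adjusted p = 0.169). Ifnar2 was at 77.9 and 59.0 CPM (adjusted p = 0.318), Osmr at 90.5 and 63.9 CPM (0.334) and Il17rc at 22.5 and 27.5 CPM (0.566). Of 16 NF-kB factors and feedback targets none was called by edgeR or DESeq2, with a median of -0.08 and 2 at an unadjusted p under 0.05. A positive log2 fold change was found for 3 of these 16, and for 49.7% of all tested genes. Nfkbie, an inhibitor of NF-kB, was at 3.05 ± 1.45 and 7.93 ± 1.29 CPM (1.37, SE 0.45, adjusted p = 0.164), Rel at 300.3 and 202 CPM (0.309), Relb at 16.96 and 12.04 CPM (0.411) and Nfkb2 at 51.1 and 39.8 CPM (0.516).

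Interferon response genes had mostly positive fold changes without a call in the edgeR test. Of 17 tested (24 listed) edgeR called none, DESeq2 called 1 upward, 4 had an unadjusted p under 0.05, and 14 had a positive log2 fold change with a median of 0.60. Over all genes 49.7% were positive and edgeR called 3.0%. Psmb8, an immunoproteasome subunit, was at 1.19 ± 0.723 and 4.46 ± 1.64 CPM (1.90, SE 0.63, adjusted p = 0.175). Gbp2 was at 0.280 and 1.27 CPM (0.208) and Isg15, a ubiquitin-like modifier, at 0.237 and 1.05 CPM (0.236), both close to the floor in controls. B2m, the light chain of MHC class I, was at 64.0 and 96.9 CPM (0.290) and rose with the replicate block (adjusted p = 0.0476).

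For Cxcl2 and Cxcl10 mutant 1 lay below and mutant 3 above all other libraries. These were 2 of the 9 tested chemokines. The same held for 6 of the 16 NF-kB genes, 4 of the 22 cytokine and receptor genes and 3 of the 17 interferon response genes, and for 2.70% of all tested genes. The genes that follow were picked from these after their values were seen. Tnfaip3, which ends NF-kB signalling, was at 206, 218 and 224 CPM in controls and 61.3, 114 and 270.4 CPM in mutants. Icam1, an adhesion molecule, was at 177, 199.7 and 228 CPM in controls and 118, 139 and 315 CPM in mutants. Tnf, an inflammatory cytokine, was at 23.2, 32.4 and 29.7 CPM in controls and 13.9, 21.7 and 43.5 CPM in mutants, and Irf1, an interferon-regulated factor, at 72.8, 66.9 and 66.5 against 38.8, 61.0 and 119 CPM. Replicate 3 was often the highest library in both groups. In the NF-kB list mutant 3 was the highest mutant in 14 of the 16 genes and control 3 the highest control in 11, and in the tested chemokines in 6 and 5 of the 9, against 35.4% and 35.1% of all tested genes. For the 8 basal keratinocyte markers mutant 3 and control 3 were each the highest of their group in all 8. Among the mutants Cxcl14 was highest in mutant 1.

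**Figure D4:**
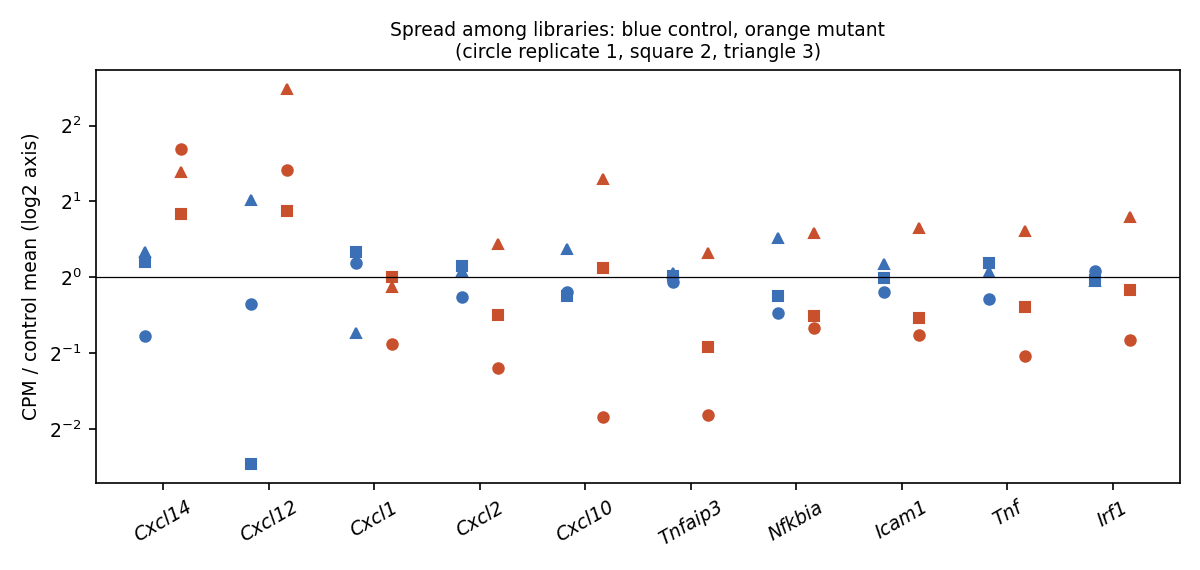
CPM of each library divided by the control mean on a log2 axis, controls in blue and mutants in orange, for 5 chemokines and 5 inflammatory genes. The mutant triangles (mutant 3) lie above and the mutant circles (mutant 1) below the controls for Cxcl2, Cxcl10, Tnfaip3, Nfkbia, Icam1, Tnf and Irf1, while all mutant points of Cxcl14 lie above the controls.

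Most other chemokine ligands were too low to be tested. Of 30 genes 7 passed the filter and none was called by edgeR or DESeq2 (median log2 fold change -0.02, with 0 genes at an unadjusted p under 0.05). No read was found in any library for 7 of the 30. Over all genes edgeR called 3.0%. Ccl27a, a keratinocyte ligand for skin-homing T cells, was the highest at 13.7 ± 3.40 and 15.2 ± 1.94 CPM (0.15, SE 0.26, adjusted p = 0.864). Ccl25 was at 2.50 ± 1.501 and 0.850 ± 0.568 CPM (adjusted p = 0.413), Ccl28, a ligand of mucosal epithelia, at 1.99 and 1.28 CPM (0.832) and Ccl19 at 0.536 and 1.15 CPM (0.662).

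The genes whose log2 CPM followed Cxcl14 most closely over the 6 libraries were Adam9, Tmod2, Msrb3, Myo16 and Rnf166, with Pearson r of 0.996, 0.989, 0.980, 0.977 and 0.976 among 10240 named genes with a mean of at least 5 CPM. This is a description over few libraries that share the group difference. Adam9, a metalloproteinase, was at 31.3 ± 3.27 and 39.0 ± 3.41 CPM and Msrb3, a methionine sulfoxide reductase, at 16.1 ± 5.01 and 34.4 ± 3.43 CPM. None of the 5 passed the edgeR test of mutant against control (lowest adjusted p = 0.0578, Msrb3). Msrb3 rose with the replicate block (adjusted p = 0.0171), with DESeq2 (0.00617), limma-voom (0.0491), library totals only (0.0345) and no filter (0.0251), and without control 3 (0.0329), and Myo16 rose with DESeq2 (0.0231) and without control 3 (0.0428). On the log2 scale 4 of them had a smaller fold change than Cxcl14 and Myo16 a larger one (1.95, SE 0.61).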

How the data were processed

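RNA sequencing counts of 6 libraries were used, 3 per group. Each library has its own deposited file, whose values are whole-number counts by gene symbol with no normalization. Per the submitters' processing notes, the tools were DESeq2 1.6.3, HTSeq 0.6.1, Cufflinks 2.2.1 and TopHat2 2.0.13 on mm10, listed without role or order. Neither strand setting nor annotation release is stated there. Per the labels' protocols, RNA was amplified before library construction, so reads are not independent molecules.

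Differential expression was tested with edgeR 4.0.16 in R 4.3.3: quasi-likelihood test, TMM factors, filterByExpr, group as the only term, two-sided, Benjamini-Hochberg adjustment over 14345 genes, called at an adjusted p under 0.05. The filter removed 0.0971% of counts. SE values come from the F statistic. No pair of libraries agreed within sampling noise (chi-square per degree of freedom at least 25.1). The steps were tested on simulated data. Members, gene lists and tests were chosen with earlier results of these data known. Named genes are the members, Ring1, Rnf2, the sort genes and the 5 genes most like Cxcl14. From each other list up to 4 genes are named (called first, then by p). The melanocyte, follicle, interfollicular, basal keratinocyte and sebocyte lists were not named by this rule. Other genes are stated as picked later or are given as reads or levels to complete a list. Alternatives were other normalizations, filters, DESeq2 1.42.0, limma-voom (limma 3.58.1), a replicate block and leaving out each library. Promoter windows come from RefSeq (8 of 10 members matched) and positions and exon lengths from GENCODE M21.

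The labels give both groups replicate numbers 1 to 3. The deviation from the group mean was compared between libraries, and same-numbered ones correlated at 0.205, 0.168 and 0.363, against at most 0.0891 for other control and mutant pairs, so the pairing comes from the data by a minimum of 0.1 and remains uncertain. Blocked values stand beside results whose call they change.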

Additional observations from a re-analysis of the deposited data

How the results depend on the processing

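The number of genes called was 430 and rose to 986 with DESeq2 (739 up and 247 down) and 1345 with the replicate block (873 up and 472 down, 64.9% up against 86.5%). Without 1 library it ran from 163 to 664. The number of members called was 1, 0 with DESeq2-type size factors and 2 with the replicate block, and 0 to 2 without 1 library. Receptors called were 1, 0 with DESeq2-type size factors, 2 with DESeq2 and 2 with the replicate block (1 up and 1 down), and 0 to 2 without 1 library. Genes of shedding, cleavage and heparan sulfate binding called were 1, and 2 with library totals only, no filter, the stricter filter, DESeq2 and the replicate block, the added gene being Ext2. Interferon response genes called were 0, and 1 with DESeq2 and with the replicate block. NF-kB genes called were 0, and 0 to 1 without 1 library, a gene that is not among the named ones. Cytokine genes and other ligands had 0 calls under every alternative. Where a call changed, the cause was not tested, and fits that leave 1 library out also hold fewer libraries. Leaving aside the endothelial markers, no gene named by the rule above that was called, in the reported fit or an alternative, changed direction in the 13 alternatives. Of the members, none of which were called then, Cxcl10 changed sign in 3 and Cxcl2 in 1. The filter on low counts left Ccl20, 23 other ligands and 14 receptors untested.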
